A study of Mus musculus with 20 samples.

Results

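The genes described here encode proteins that release, take up and carry fatty acids. They are 10 genes, taken from a list of names, of the 28786 gene symbols on the array: Lpl and Vldlr, which act on circulating lipoproteins, Cd36, Slc27a1, Slc27a4 and Slc27a5, which act at cell membranes, and Fabp1, Fabp2, Fabp4 and Fabp5, which bind fatty acids inside the cell. They were read by 17 of 41174 probes, and each gene is given by its brightest probe over all arrays, with other probes given where their values differ. The study asked how loss of CD44, a cell surface receptor for hyaluronan and osteopontin, alters the response of mice to a high-fat diet. Liver and white adipose tissue (WAT) came from wild-type mice, WT(HFD), and from mice that lack Cd44 in every cell, CD44KO(HFD), with 5 arrays for each genotype in each tissue and 20 in all. Every animal was a 7-month-old male on a C57BL/6 background, and every group, the wild type included, had received a diet with 35% fat for 21 weeks. The CD44-deficient line had been crossed back onto C57BL/6J, and no array of mice on normal chow was analysed here. The labels do not say which fat depot was taken or whether liver and WAT came from the same animals, and the p-values measure the spread between the arrays of a group.

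Most fatty acids reach a tissue in triglyceride-rich lipoproteins or bound to albumin. Lipoprotein lipase on the capillary wall frees fatty acids from the particles, the VLDL receptor holds and internalises them, and CD36 together with fatty acid transport proteins moves fatty acids across the membrane, where binding proteins keep them soluble. Adipocytes store most of this supply, whereas hepatocytes also oxidise it or send it out again as VLDL, and in obese mice raised hepatic CD36 is known to accompany fatty liver.

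Levels are given on the log2 scale as the signal of a probe minus the 75th percentile of its array, so that 0 is the signal of that percentile and 1 unit is a doubling. Replicate arrays correlated with r between 0.981 and 0.989 in liver. A single WAT array, WT(HFD) replicate 1, stood apart, since 89.5% of its spots were well above background against 63.2% to 69.5% on the other WAT arrays, and its median r with its own group was 0.84. Genotype differences in WAT are therefore also given without it. Cd44 itself fell by 4.21 in CD44KO(HFD) liver and fell by 4.57 in CD44KO(HFD) WAT, with no overlap between genotypes. In liver all 11 hepatocyte markers were well above background on every array, and in WAT at least 6 of the 7 adipocyte markers were.

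All 10 genes differed between the tissues in WT(HFD) mice, 4 with the higher level in liver and 6 in WAT. Of all probes tested in this comparison, 70.5% passed the threshold, 36.2% higher in liver and 34.3% higher in WAT, so that a difference of this kind was the rule on these arrays. Slc27a5, a hepatic enzyme that activates bile acids and very long chain fatty acids, ranged from 6.78 to 7.97 on liver arrays and from -4.86 to -0.70 on WAT arrays, a difference of 10.30 ± 0.67 (SE) in WT(HFD) mice. Fabp2, the intestinal fatty acid binding protein, was higher in WT(HFD) liver than in WT(HFD) WAT by 9.81 ± 0.43. Fabp1, the abundant binding protein of hepatocytes, was higher in liver by 7.34 ± 0.66, or 162-fold. For Slc27a4, the main fatty acid transporter of the small intestine, the excess in liver was 1.66 ± 0.20, and it had the largest adjusted p of the 10 genes (limma, 6.3e-07). The dimmer Slc27a4 probe gave an excess of 0.61 (limma adjusted p = 0.049).

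The genes with higher levels in WAT included those of lipoprotein lipolysis. Lpl was 48.3-fold higher in WT(HFD) WAT than in WT(HFD) liver, a liver minus WAT difference of -5.59 on the log2 scale, and the other Lpl probe gave 142-fold. Its lowest level on a WAT array was 6.63 and its highest on a liver array 2.61. Fabp4, the binding protein of adipocytes and macrophages, was 25.7-fold higher in WAT by its brightest probe, which was saturated on 1 WT(HFD) WAT array, and 14.6-fold and 78.6-fold higher by the other probes. Vldlr was 10.1-fold higher by its brightest probe and 4.68-fold by the other, Slc27a1, an insulin-responsive transporter of fat and muscle, 6.74-fold higher and Cd36 5.72-fold higher. Fabp5, a binding protein of epidermis and macrophages, was well above background on all 10 WAT arrays and on no liver array, and it was at least 12.1-fold higher in WT(HFD) WAT and at least 14.4-fold higher in CD44KO(HFD) WAT. For that bound a dimmer liver signal was set to the dimmest signal that its own array measured well above background. The same direction was found for each gene in CD44KO(HFD) mice, in which 73.7% of all probes differed between the tissues. Liver arrays and WAT arrays were on different slides and were read by different scanners, so tissue, slide and scanner cannot be told apart in these differences. The panels of levels by array show the separation of the tissues for each gene.

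**Figure D1:**
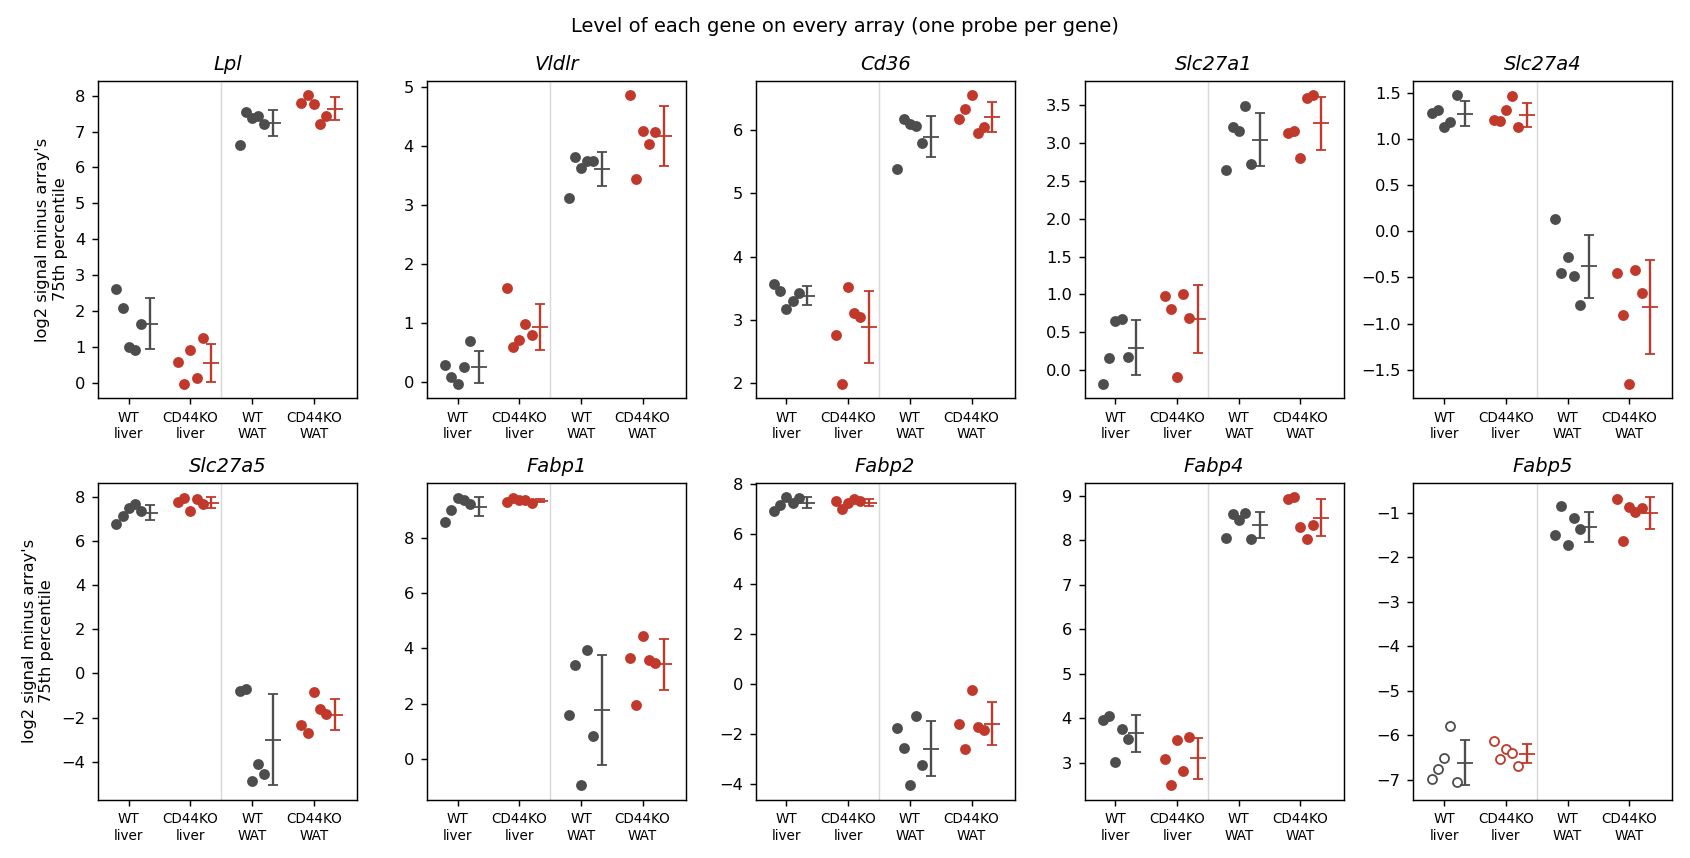
Level of each of the 10 genes on every array, one panel per gene with its own axis. Each point is 1 array, filled where the spot was well above background and open where it was not, and the bar beside each group is the mean with its SD (n = 5). Liver and WAT points do not overlap in any panel, and within a tissue the genotypes overlap in every panel, which shows the brightest probe of its gene.

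The promoter of Fabp1 and that of Cd36 are shown because one gene was higher in liver and the other in WAT and because the pair share the half-site of nuclear receptors such as the PPARs, AGGTCA. The sequences are those of RefSeq on GRCm38.p6, 250 bases before to 50 bases after the start of transcription, and 6 of the 10 genes had an entry. In Fabp1 the capitals mark a match to a direct repeat, AGGNCA followed after any 1 base by AGGNCA, read here on the opposite strand, and a TATA box, TATAAA. In Cd36 they mark the single half-site, also on the opposite strand, and a CCAAT box. Fabp1 holds a further AGGTCA on the opposite strand, which ends 3 bases before the start and is left in lower case.
Fabp1, chr6:71199629-71199928, + strand: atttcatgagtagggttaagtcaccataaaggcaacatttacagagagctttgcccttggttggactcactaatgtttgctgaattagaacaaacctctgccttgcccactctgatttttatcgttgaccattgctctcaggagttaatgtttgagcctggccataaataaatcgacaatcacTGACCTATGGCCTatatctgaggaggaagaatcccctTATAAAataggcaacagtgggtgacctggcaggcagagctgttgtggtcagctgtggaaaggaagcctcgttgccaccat
Cd36, chr5:17835847-17836146, - strand: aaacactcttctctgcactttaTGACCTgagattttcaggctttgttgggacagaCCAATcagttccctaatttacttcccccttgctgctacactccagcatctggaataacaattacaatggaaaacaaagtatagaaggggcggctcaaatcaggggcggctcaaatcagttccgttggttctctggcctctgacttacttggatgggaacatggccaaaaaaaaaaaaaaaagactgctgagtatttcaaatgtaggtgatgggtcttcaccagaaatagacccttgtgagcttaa
The paired half-site occurred, on either strand, in 0.381% of the 32851 promoter entries of the table and in 1 of the 9 entries of these genes, that of Fabp1, where it ended 54 bases before the start. The single AGGTCA, which also matches inside the pair, occurred in 16.3% of all entries, TATAAA in 13.6% and CCAAT in 37.4%. These matches describe letters in the window and were not tested for binding.

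Among the 9 genes that could be tested in liver, Vldlr was the only one past the threshold between genotypes, and it was higher in CD44KO(HFD) mice. Of all 24689 probes tested in liver 13.6% passed, 7.85% higher and 5.75% lower in CD44KO(HFD) mice, so that 1 of 9 is near the share found for probes at large. The genotype differences of the 9 genes ran from -1.09 for Lpl to 0.67 for Vldlr, 5 were above 0 and 4 below, and their median was 0.01 against 0.08 over all probes. An unadjusted limma p under 0.05 was found for 4, namely Lpl, Vldlr, Slc27a5 and Fabp4, against 32.2% of all probes. None of the 9 had genotypes that did not overlap, against 11.7% of all probes. In whole tissue, fewer cells of a type and less RNA per cell cannot be told apart, here and in the results that follow.

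Lpl, the lipase that frees fatty acids from lipoproteins, showed the largest difference of the 10 genes in liver. On the 5 WT(HFD) liver arrays it was at 2.61, 2.08, 1.0, 0.91 and 1.63, and on the 5 CD44KO(HFD) liver arrays at 0.56, -0.03, 0.90, 0.12 and 1.24. Every CD44KO(HFD) array lay below the WT(HFD) mean, but the groups overlapped between 0.91 and 1.24. The means were 1.65 ± 0.72 (SD, n = 5) and 0.56 ± 0.53 (SD, n = 5), a 2.12-fold lower signal in CD44KO(HFD) liver that did not pass the threshold over all probes (log2 difference -1.09, SE 0.36, limma adjusted p = 0.068, exact two-sided permutation p = 0.032). The other Lpl probe gave -0.85 (limma adjusted p = 0.18). With slide as a block the first probe passed (limma adjusted p = 0.034) among 17.3% of all probes, and with array weights it passed (limma adjusted p = 0.039) among 19.5%. The difference was -1.05, -1.45 and -0.44 within the 3 slides. Over the fits that each left out 1 array the adjusted p ran from 0.042, without WT(HFD) replicate 4, to 0.15.

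Vldlr, the receptor that binds triglyceride-rich lipoproteins, differed in the other direction. In WT(HFD) liver it was at 0.29, 0.10, -0.02, 0.26 and 0.70, and in CD44KO(HFD) liver at 1.59, 0.60, 0.72, 0.99 and 0.80. The CD44KO(HFD) arrays were the higher ones apart from replicate 2, which lay under the highest WT(HFD) array, and replicate 1 stood above the rest. The signal was 1.59-fold higher in CD44KO(HFD) liver (log2 difference 0.67, SE 0.20, 95% interval 0.24 to 1.11, limma adjusted p = 0.048, exact two-sided permutation p = 0.016), and within the slides the difference was 0.27, 0.61 and 1.61. The second Vldlr probe gave 0.40 (limma adjusted p = 0.12). With slide as a block the adjusted p was 0.052 and with the replicate number as a block 0.065. The call was lost when any 1 of 8 arrays was left out, with the adjusted p between 0.041 and 0.11 over the 10 such fits, while the difference stayed between 0.51 and 0.78.

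**Figure D2:**
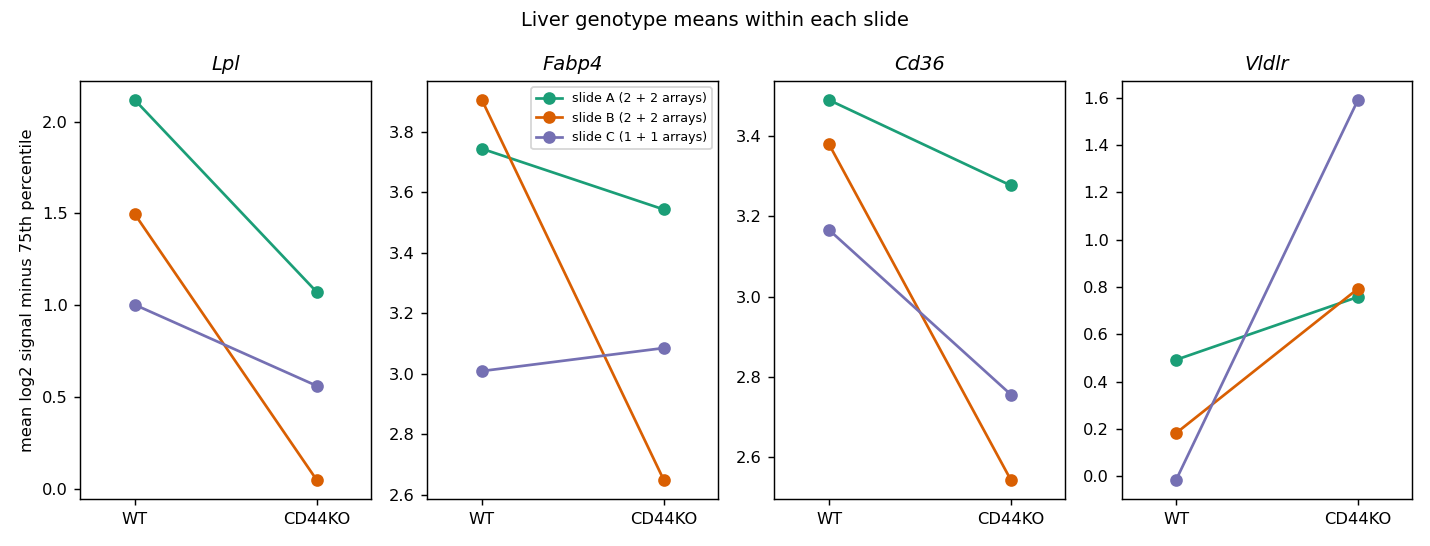
Mean log2 level of Lpl, Fabp4, Cd36 and Vldlr in WT(HFD) and CD44KO(HFD) liver within each of the 3 slides, each slide a line with its number of WT and CD44KO arrays in the legend, and each panel with its own axis. The CD44KO mean of Lpl and of Cd36 was below the WT mean on all 3 slides and that of Vldlr above it on all 3, whereas Fabp4 differed by 0.08 in the other direction on slide C.

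At the membrane, Cd36, the fatty acid translocase, is on the study's own list of genes that were lower in CD44KO(HFD) liver. That list was drawn from these samples, so the direction of Cd36 on the arrays is not independent evidence. The study also reports lower Cd36 in CD44KO(HFD) liver by quantitative PCR, which was not read here. On the arrays Cd36 was at 3.56, 3.46, 3.17, 3.30 and 3.42 in WT(HFD) liver, and at 2.76, 1.99, 3.52, 3.1 and 3.04 in CD44KO(HFD) liver. The WT(HFD) arrays were close together, while the CD44KO(HFD) arrays spread over a wider range and 1 of them, replicate 3, was nearly as high as the highest WT(HFD) array. The difference was -0.50 (SE 0.24, 95% interval -1.03 to 0.03, limma adjusted p = 0.18, exact two-sided permutation p = 0.063). The second probe, which carries the accession of the study's list, was below the WT(HFD) mean on each of the 5 CD44KO(HFD) arrays (-0.64, limma adjusted p = 0.11, exact two-sided permutation p = 0.024). The first probe spans 2433 bases of the genome (mm7) with 60 bases of sequence and so crosses a splice junction, and the second lies within 60 bases.

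The transporters did not pass the threshold in liver. Slc27a5 was at 6.78, 7.15, 7.49, 7.69 and 7.37 in WT(HFD) liver and at 7.80, 7.97, 7.35, 7.93 and 7.70 in CD44KO(HFD) liver. All but replicate 3 of the CD44KO(HFD) arrays were above every WT(HFD) array, and the difference was 0.45 (SE 0.18, limma adjusted p = 0.11, exact two-sided permutation p = 0.056). Slc27a1 ran from -0.18 to 0.67 in WT(HFD) liver and from -0.09 to 1.01 in CD44KO(HFD) liver, a difference of 0.38 (SE 0.23, limma adjusted p = 0.29). For Slc27a4 the groups covered nearly the same range, 1.13 to 1.47 and 1.13 to 1.46, and the interval of the difference was -0.22 to 0.18. Its dimmer second probe differed by -0.29 (limma adjusted p = 0.060, exact two-sided permutation p = 0.024).

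Of the binding proteins, Fabp4 was the only one with a lower mean in CD44KO(HFD) liver. It was at 3.95, 4.05, 3.01, 3.76 and 3.54 in WT(HFD) liver and at 3.09, 2.49, 3.51, 2.81 and 3.58 in CD44KO(HFD) liver. Each CD44KO(HFD) array lay below the WT(HFD) mean, and WT(HFD) replicates 3 and 5 were among the CD44KO(HFD) values. The 3 Fabp4 probes gave -0.57, -0.69 and -0.58, with limma adjusted p-values of 0.15, 0.081 and 0.22. Fabp1, the liver-type protein, was at 8.56 to 9.42 in WT(HFD) liver and within 9.24 to 9.41 in CD44KO(HFD) liver, a difference of 0.22 (SE 0.15, limma adjusted p = 0.33). Fabp2 differed by 0.01 with an interval of -0.25 to 0.27, and its second probe by 0.28 (limma adjusted p = 0.16). Fabp5 was not well above background on any liver array and was not tested there.

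Markers of other cell types moved beside these genes in liver. Of the 7 adipocyte markers, Cfd and Lipe passed the detection filter in liver, Lep was at background on all 10 arrays and Adipoq was well above background on 1 array of each genotype. The summed signal of the adipocyte list ran from 2.36 to 4.21 in WT(HFD) liver and from 0.91 to 3.77 in CD44KO(HFD) liver. Most of that sum was Cfd, which was at 4.16 on WT(HFD) replicate 4, where the sum was 4.21. Cfd differed by -1.28 (limma adjusted p = 0.20) and Lipe by 0.02. The mean log2 level of the list was -4.55 to -3.16 in WT(HFD) liver and -4.41 to -3.32 in CD44KO(HFD) liver. Of the 7 macrophage markers tested, 4 had a higher and 3 a lower mean in CD44KO(HFD) liver, with a median difference of 0.07. Only Itgax, which encodes CD11c, passed, and it fell by 2.01 (limma adjusted p = 0.028). The summed signal of the 8 macrophage markers was 2.81 to 4.06 in WT(HFD) liver and 3.40 to 4.56 in CD44KO(HFD) liver. All 11 hepatocyte markers had a higher mean in CD44KO(HFD) liver, with a median of 0.30, and 2 of them passed the threshold. The part of these cells in the values of Lpl, Fabp4, Cd36 and Slc27a5 was not tested.

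In WAT no gene of the 10 passed the threshold, and none had an unadjusted limma p under 0.05. Over all 27653 probes tested in WAT 11 passed, which is 0.0398%, with 0.0289% lower and 0.0108% higher in CD44KO(HFD) mice, against 4111 with an unadjusted p under 0.05. A higher mean in CD44KO(HFD) WAT was found for 9 of the 10 genes and a lower one for Slc27a4, and the median difference was 0.36 against -0.06 over all probes. By the brightest probe no gene had genotypes that did not overlap, against 6.18% of all probes. On the second Vldlr probe and the third Fabp4 probe they did not overlap, the latter over 3 WT(HFD) arrays. Without WT(HFD) replicate 1 the number of these genes past the threshold was again 0 in limma, with 0 at an unadjusted p under 0.05 and 0.136% of all probes past the threshold. Slide F held CD44KO(HFD) replicates 1 and 4 and no WT(HFD) array, so a fit with slide as a block compares genotypes only within slides D and E. In that fit 0.0145% of all probes passed. Array weights, which let arrays count unequally in the fit, changed this more, but their estimate stopped before it reached its tolerance in WAT and gave CD44KO(HFD) replicate 5 a weight of 28.5 and WT(HFD) replicate 1 a weight of 0.0791. In that fit 19.1% of all probes passed, among them Vldlr (0.49, limma adjusted p = 0.015) and Slc27a1 (0.39, limma adjusted p = 0.050), while Cd36, Lpl and Fabp4 were at -0.023, -0.0086 and -0.15. With weights estimated gene by gene, an alternative chosen after seeing the data, CD44KO(HFD) replicate 5 had a weight of 9.99, 10.3% of all probes passed and Vldlr was the only one of the 10 genes among them (0.46, limma adjusted p = 0.042). Scaling by the median in place of the 75th percentile raised the median difference of all probes in WAT to 0.42, and Slc27a4 to 0.041. The plot of differences sets the 17 probes of the 10 genes side by side in both tissues.

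**Figure D3:**
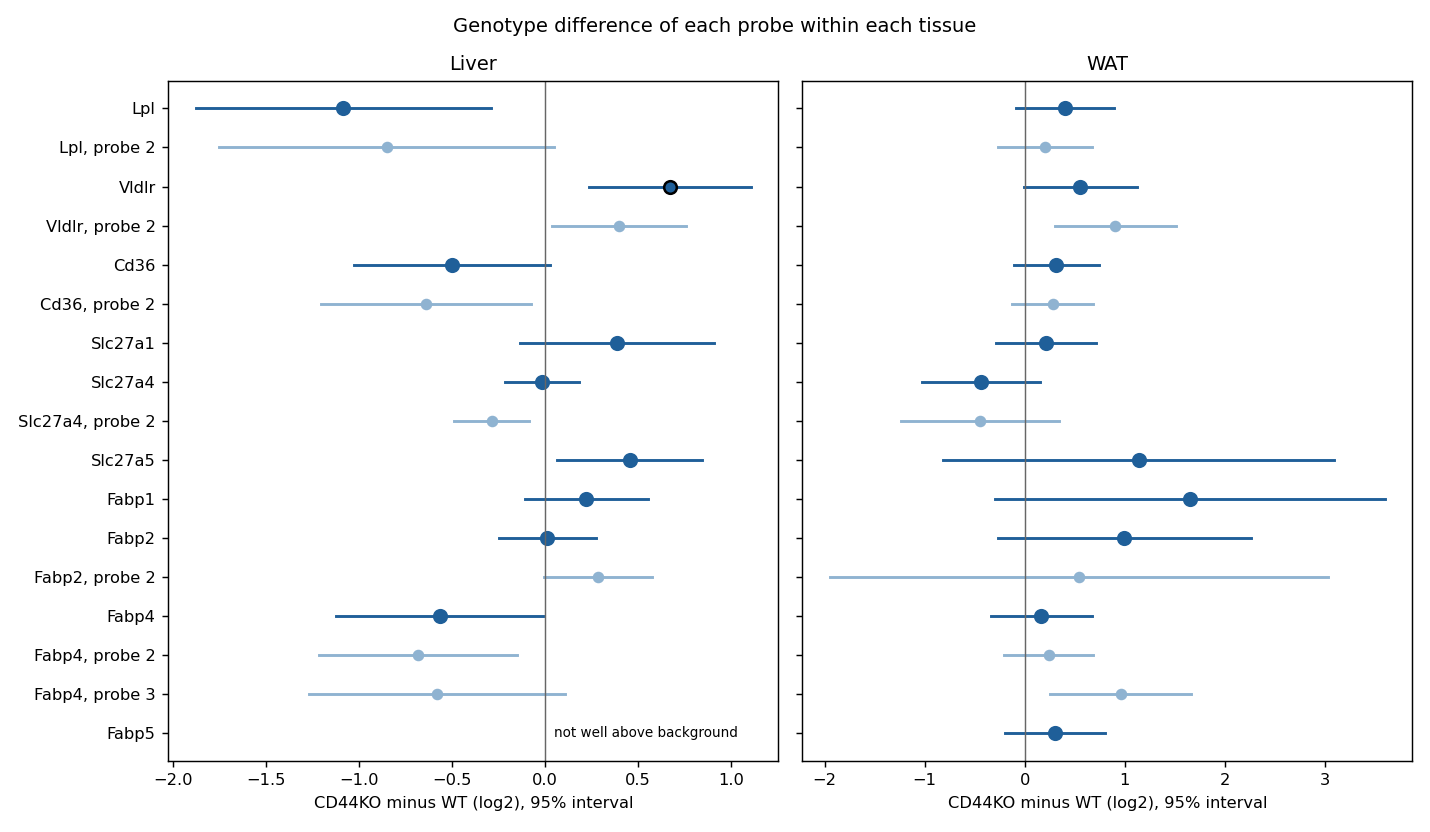
CD44KO minus WT difference on the log2 scale for the 17 probes in liver (left) and WAT (right), as points with 95% intervals from limma, apart from Fabp5 in liver, which was not tested. The brightest probe of a gene is dark and its other probes pale, and a black rim marks an adjusted p under 0.05, which only Vldlr in liver at 0.67 carries. The horizontal axes differ between the panels, and the widest intervals are those of Slc27a5, Fabp1 and Fabp2 in WAT.

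Vldlr was again higher on average in CD44KO(HFD) mice. In WT(HFD) WAT it was at 3.11, 3.81, 3.62, 3.74 and 3.74, and in CD44KO(HFD) WAT at 4.85, 3.44, 4.25, 4.03 and 4.23. All CD44KO(HFD) arrays except replicate 2 were above every WT(HFD) array, and the difference was 0.56 (SE 0.25, 95% interval -0.01 to 1.12, limma adjusted p = 0.34, exact two-sided permutation p = 0.063). Without WT(HFD) replicate 1 it was 0.43. The second probe was at -0.61, 0.72, 0.74, 0.63 and 0.36 in WT(HFD) WAT and at 1.21, 1.44, 1.65, 1.03 and 1.03 in CD44KO(HFD) WAT. Here the genotypes did not overlap (0.91, limma adjusted p = 0.21, exact two-sided permutation p = 0.0079, the smallest that 10 arrays allow). This probe carries the accession that the study lists for WAT from these samples, so its separation is not independent evidence.

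Lpl differed in WAT by 0.40 (SE 0.22, limma adjusted p = 0.41), with 6.63 to 7.54 on the WT(HFD) arrays and 7.20 to 8.01 on the CD44KO(HFD) arrays. Cd36 differed by 0.32 (SE 0.19, limma adjusted p = 0.45), with all 5 CD44KO(HFD) arrays above the WT(HFD) mean. In both genes WT(HFD) replicate 1, the array that stood apart, was the lowest of the 10, and without it the differences were 0.25 and 0.19. The other probes of Lpl and Cd36 differed by 0.20 and 0.28. Slc27a1 differed by 0.22 (limma adjusted p = 0.64), and by 0.12 without that array. Slc27a4 was at 0.13, -0.45, -0.28, -0.49 and -0.80 in WT(HFD) WAT and at -0.45, -0.91, -1.65, -0.42 and -0.67 in CD44KO(HFD) WAT, a difference of -0.44 (SE 0.26, limma adjusted p = 0.45). Its highest value was that of WT(HFD) replicate 1, without which the difference was -0.31, and the other Slc27a4 probe also gave -0.44.

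Fabp4, the leading binding protein of adipocytes, read differently by probe. A pair of its 3 probes is shown because they cover separate stretches of the transcript and gave different values in WAT. The first crosses a splice junction, since its 60 bases span 730 bases of the genome (mm7). The other lies upstream of it in the transcript and itself spans 60 bases of the genome. Both are printed 5′ to 3′ as on the array, in lower case throughout.
Fabp4, brightest probe, chr3:10212718-10213447, - strand: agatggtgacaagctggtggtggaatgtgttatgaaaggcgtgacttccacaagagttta
Fabp4, the third probe, chr3:10216627-10216686, - strand: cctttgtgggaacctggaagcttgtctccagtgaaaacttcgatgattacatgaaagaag
On the brightest probe the difference was 0.17 (SE 0.23, limma adjusted p = 0.72), or 0.097 without WT(HFD) replicate 1, and this probe was saturated on 1 WT(HFD) and 4 CD44KO(HFD) arrays, so that its upper values are bounds. The second probe, not saturated, differed by 0.24 (limma adjusted p = 0.57). The third was at 3.80, 4.74 and 4.66 in WT(HFD) WAT, where the spots of 2 arrays had been flagged as outliers and were left out, and at 5.59, 5.88, 5.33, 4.93 and 5.08 in CD44KO(HFD) WAT. All of its CD44KO(HFD) values were above its 3 WT(HFD) values, a difference of 0.96 (SE 0.31, limma adjusted p = 0.24). Fabp5 ran from -1.72 to -0.86 in WT(HFD) WAT and from -1.63 to -0.69 in CD44KO(HFD) WAT, a difference of 0.30 (limma adjusted p = 0.52), or 0.25 without WT(HFD) replicate 1.

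The genes with the largest mean differences in WAT were Fabp1, Slc27a5 and Fabp2, each of which was far higher in liver. Fabp1, which the study lists for WAT from these samples, was at 1.59, 3.41, -0.94, 3.95 and 0.83 in WT(HFD) WAT and at 3.65, 1.94, 4.46, 3.57 and 3.48 in CD44KO(HFD) WAT. The CD44KO(HFD) arrays were all above the WT(HFD) mean, but WT(HFD) replicates 2 and 4 lay among them. The means were 1.77 ± 1.98 (SD, n = 5) and 3.42 ± 0.92 (SD, n = 5), and the difference of 1.65 (SE 0.88, 95% interval -0.29 to 3.60) did not exceed the spread (limma adjusted p = 0.40, exact two-sided permutation p = 0.12). Over the fits that each left out 1 array it ran from 0.98 to 2.20, with 1.61 without WT(HFD) replicate 1. Within slide D, which held 2 arrays of each genotype, the difference was -0.06, and within slide E, with 3 WT(HFD) arrays and 1 CD44KO(HFD) array, it was 3.36.

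Slc27a5 was at -0.81, -0.70, -4.86, -4.10 and -4.55 in WT(HFD) WAT and at -2.36, -2.68, -0.83, -1.63 and -1.82 in CD44KO(HFD) WAT. The WT(HFD) arrays fell into a high pair, replicates 1 and 2, and 3 low ones, and every CD44KO(HFD) array lay between them. The difference of 1.14 came with an SE of 0.88 (limma adjusted p = 0.54) and was 1.69 without WT(HFD) replicate 1. Fabp2 ran from -4.04 to -1.29 in WT(HFD) WAT and from -2.59 to -0.22 in CD44KO(HFD) WAT, a difference of 1.0 (SE 0.57, limma adjusted p = 0.42), or 1.2 without WT(HFD) replicate 1. Its second probe, well above background on 2 WT(HFD) and 4 CD44KO(HFD) arrays, differed by 0.54 (SE 1.12).

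Hepatocyte markers were detected in WAT and varied over the same arrays. Of the 11 markers, 9 to 11 were well above background on each WT(HFD) WAT array and 10 or 11 on each CD44KO(HFD) WAT array. Their summed signal was 4.29, 5.71, 2.54, 5.02 and 2.56 on the WT(HFD) WAT arrays and 4.16, 3.94, 6.13, 5.28 and 5.06 on the CD44KO(HFD) WAT arrays, against 11.75 to 12.36 on the liver arrays. WT(HFD) replicates 3 and 5, the lowest for this list, were also the lowest for Fabp1 and Fabp2, and CD44KO(HFD) replicate 3, the highest for the list, was the highest for both. Alb, the main plasma protein of hepatocytes, ranged from 0.61 to 4.66 in WT(HFD) WAT and differed between genotypes by 1.11 (limma adjusted p = 0.53). A higher mean in CD44KO(HFD) WAT was found for 10 of the 11 markers and a lower one for 1. The differences ran from -1.76 to 1.18 with a median of 0.82, and 0 passed the threshold in limma. The part of such RNA in the WAT levels of Fabp1, Fabp2 and Slc27a5 was not tested.

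**Figure D4:**
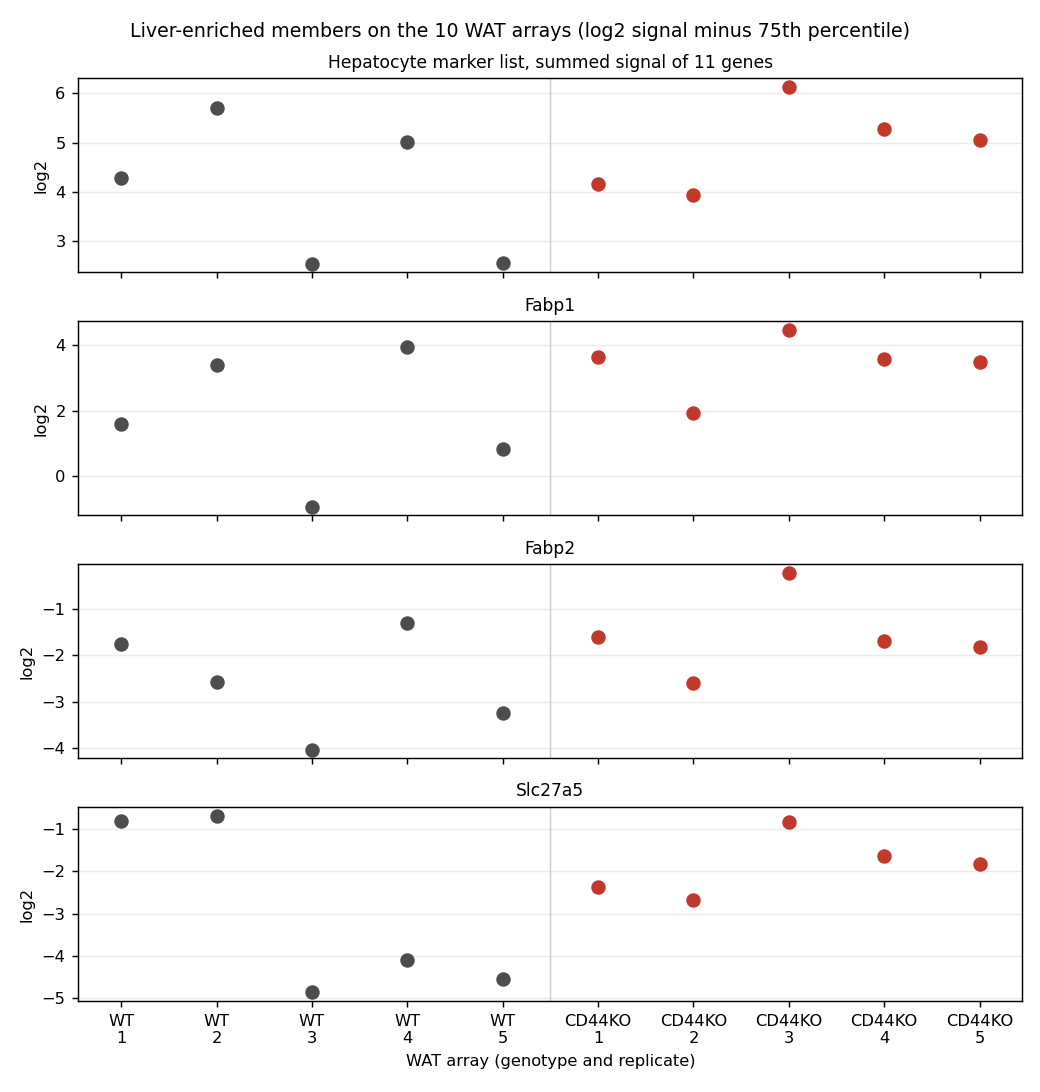
Summed log2 signal of 11 hepatocyte markers (top) and log2 level of Fabp1, Fabp2 and Slc27a5 on each of the 10 WAT arrays, WT in grey and CD44KO in red, each panel with its own axis. WT replicates 3 and 5 are the lowest points of the marker panel, at 2.54 and 2.56, and of the Fabp1 and Fabp2 panels, while Slc27a5 is also low on WT replicate 4.

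Other lists moved in WAT as well. The summed signal of the 6 endothelial markers was 3.22 to 4.16 in WT(HFD) WAT and 4.41 to 5.26 in CD44KO(HFD) WAT, without overlap. The mean log2 level of that list did overlap, at 0.37 to 1.24 and 1.22 to 2.15. The summed signal of the 7 adipocyte markers was 6.89 to 8.12 and 8.09 to 8.90. All 6 endothelial and all 7 adipocyte markers had a higher mean in CD44KO(HFD) WAT, and 0 of either list passed in limma. The macrophage list had 6.99 to 7.57 in WT(HFD) WAT and 6.22 to 7.35 in CD44KO(HFD) WAT, and all 8 of its genes had a lower mean in CD44KO(HFD) WAT, though 0 of them passed the threshold in limma and 4 had an unadjusted p under 0.05. The part of these cells in the WAT values of Lpl, Vldlr, Cd36, Fabp4 and Fabp5 was not tested.

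Whether the genotype acted differently in the tissues was tested by an interaction over all 20 arrays. None of the 10 genes passed in limma and 1.15% of 28988 probes did. An unadjusted p under 0.05 was found for 3 of the genes and for 15.8% of all probes. By the brightest probes the largest value was that of Lpl, whose difference in WAT exceeded that in liver by 1.49 (SE 0.44, limma adjusted p = 0.10, unadjusted 0.0033). The other Lpl probe gave 1.06 (SE 0.48, limma adjusted p = 0.29). For Cd36 the excess was 0.82 (SE 0.31, limma adjusted p = 0.21) and for Fabp4 0.74 (SE 0.35, limma adjusted p = 0.32) by the probe that was partly saturated in WAT. The Fabp4 probes without saturation gave 0.92 (SE 0.32, limma adjusted p = 0.16) and 1.54 (SE 0.47, limma adjusted p = 0.11). Vldlr differed by -0.12 (95% interval -0.81 to 0.58) by its brightest probe. The other Vldlr probe gave 0.51 (SE 0.33, limma adjusted p = 0.46), so the sign depended on the probe. On each probe the Vldlr mean was higher in CD44KO(HFD) mice in both tissues. For the order of levels over the 4 groups this leaves the tissues apart for each gene, with Vldlr in liver as the only neighbouring pair of genotypes past the threshold.

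The wider set of 42 genes of fatty acid uptake and handling was read in the same way. In liver 36 could be tested, of which Acsl1 passed as higher and Fabp3 and Cavin1 as lower in CD44KO(HFD) mice, with a median difference of 0.05 and 10 genes with an unadjusted limma p under 0.05. Over all probes in liver 13.6% passed and 32.2% had an unadjusted p under 0.05, so that neither count stood above the share of probes at large. The count of 3 was 1 without WT(HFD) replicate 1, 2 or 5 or CD44KO(HFD) replicate 1, 2 or 4, and 6 without CD44KO(HFD) replicate 3. Acsl1, the main long-chain acyl-CoA synthetase of liver and fat, rose by 0.59 (SE 0.14, limma adjusted p = 0.028) without overlap between genotypes. Fabp3, the heart-type binding protein, fell by 0.98 (SE 0.21, limma adjusted p = 0.019), also without overlap. The summed signal of the 6 skeletal muscle markers was lower there too, at -1.29 to -0.86 in WT(HFD) liver and -1.67 to -1.38 in CD44KO(HFD) liver. Of the 4 tested, Acta1 and Tnni2 passed as lower, and the other 2 had a higher mean in CD44KO(HFD) liver. The mean log2 level of the list overlapped, at -5.11 to -4.16 in WT(HFD) liver and -4.84 to -4.44 in CD44KO(HFD) liver. The part of muscle RNA in the Fabp3 value was not tested. Cavin1, a coat protein of caveolae that fell by 0.52 (SE 0.12, limma adjusted p = 0.026), had genotypes that overlapped. Genes of this set that did not pass without overlap and share no family name with the 10 were named after their values were seen. Of the other transporters Slc27a2, a hepatic transport protein, differed in liver by 0.32 (limma adjusted p = 0.16) and Slc27a3 by -0.21 (limma adjusted p = 0.41), while Slc27a6 was not above background there.

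The remaining binding proteins did not pass. Fabp7, the brain-type protein, differed in liver by 0.28 (limma adjusted p = 0.57), and Fabp6 and Fabp9 were not well above background on any liver array. The 9 partners of lipoprotein lipase and other lipases included 8 with a higher mean in CD44KO(HFD) liver, for example Gpihbp1, the anchor of the lipase on capillaries (0.47, limma adjusted p = 0.16), and Lipc, the hepatic lipase (0.42, limma adjusted p = 0.11), and none passed. Neither did any of the 7 transcription factors, of which Rxra, the partner of the PPARs, came closest (0.37, limma adjusted p = 0.066). Ppara differed by -0.04 and Pparg by -0.29 (limma adjusted p = 0.25).

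In WAT 37 of the 42 genes were tested and 0 passed in limma, with 6 at an unadjusted p under 0.05 and a median difference of 0.15. Over all probes in WAT 14.9% had an unadjusted p under 0.05, so that 6 of 37 was near that share. Genotypes did not overlap for 3 of the 37 genes, near the share of 6.18% of all probes, and each was higher in CD44KO(HFD) WAT. These were Gpihbp1 (0.98, limma adjusted p = 0.17), Cav2, a caveolin (0.78, limma adjusted p = 0.19), and Pparg, the regulator of adipocyte differentiation (0.63, limma adjusted p = 0.22). Fabp3, lower in CD44KO(HFD) liver, had a higher mean in CD44KO(HFD) WAT (0.60, limma adjusted p = 0.24), Fabp7 differed by 0.05 and Fabp9 by -0.13. Among the transport proteins Slc27a2 differed by 0.03, Slc27a3 by -0.13 and Slc27a6 by -1.30 (SE 0.66, limma adjusted p = 0.38). All 7 tested partners of the lipase and other lipases had a higher mean in CD44KO(HFD) WAT, with Apoc3, a plasma apolipoprotein made in liver, at 1.01 (SE 0.70, limma adjusted p = 0.50).

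**Figure D5:**
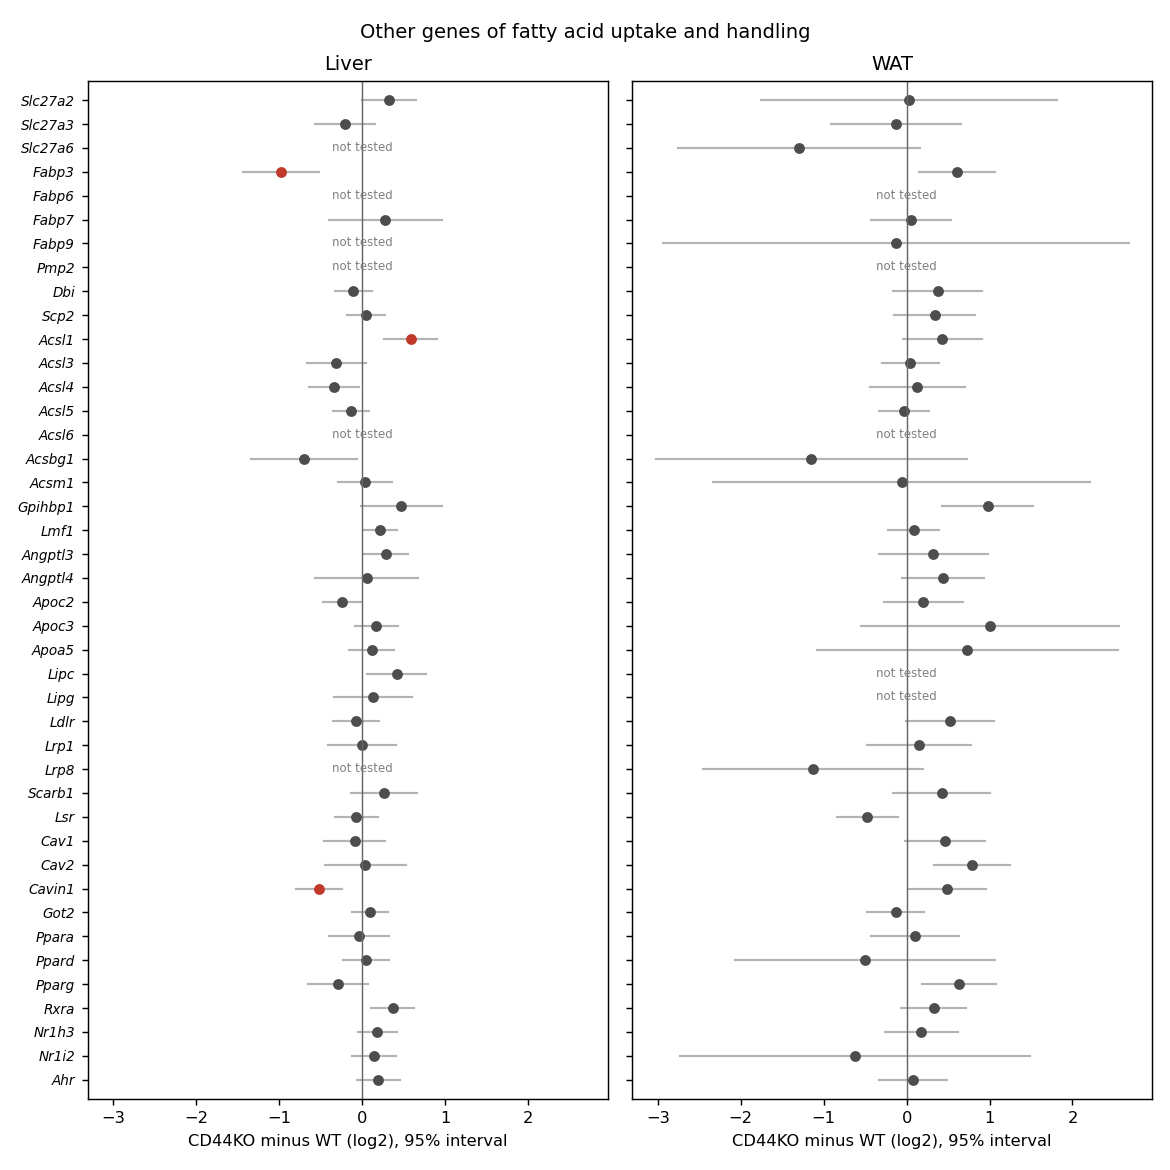
CD44KO minus WT difference on the log2 scale for 42 other genes of fatty acid uptake and handling in liver (left, 36 tested) and WAT (right, 37 tested), as points with 95% intervals from limma on a shared axis, with the remaining genes marked as not tested. Red points have an adjusted p under 0.05, which are Acsl1 at 0.59, Fabp3 at -0.98 and Cavin1 at -0.52 in liver and none in WAT.

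The genes whose pattern over the arrays was most like that of a member were read for Cd36 in liver and Fabp1 in WAT, as a description over 10 arrays that share their hybridisation and scaling. For Cd36 they were 9330129D05Rik (r = 0.977), Pigp (r = 0.967) and Gskip (r = 0.961), none of which passed between genotypes. For Fabp1 in WAT they were Mbl2 (r = 0.977), H2-Q10 (r = 0.973) and Akr1c6 (r = 0.972), and none passed between genotypes either.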

How the data were processed

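RNA of liver and WAT was labelled with Cy3 and read on Agilent arrays by the 1-colour protocol. The authors deposited linear intensity values per spot, from Feature Extraction 9.5.3.1, which had corrected spatial trends, subtracted no local background and replaced the dimmest signals by estimates. The series value table held the same intensity on all 20 arrays (45018 of 45018 spots). No column of other samples was present. Positions are those of the deposited files on mm7, and 22951 of 41174 probes were matched by accession to RefSeq genes (GRCm38.p6), which also gave the promoters.

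Outlier spots were left out, the log2 of the processed intensity was taken, the 75th percentile of each array over the 43379 spots other than controls was subtracted, and replicate spots were averaged. A probe entered the tests where 3 or more of the 5 arrays in any group measured it well above background (by 13 SD of the background, as the deposited headers give it). The tests used limma 3.58.1 in R 4.3.3, within each tissue, and over all 20 arrays for tissue and interaction, with Benjamini-Hochberg adjustment over all probes and a threshold of 0.05. Exact permutation tests over samples used the 252 relabellings of 10 arrays. Marker lists are summed signals per array. The number of arrays limits the precision.

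The members and all gene lists were chosen with earlier results of these data known. All 10 members were named, and, of the wider set, genes past the threshold without overlap and those of the Fabp and Slc27a families. The 3 genes most like Cd36 in liver and Fabp1 in WAT were taken by Pearson's r. The alternatives were another background correction, scaling, filter, block, probe choice and array weights, and each array left out. The fit was tested on simulated data, whose outcome is not given here. Markers of the Kupffer cell, brown fat, skeletal muscle, intestinal, epididymal, pancreatic and mesothelial lists were also summed and are given in the closing section.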

Additional observations from a re-analysis of the deposited data

Results flagged for a closer look

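Of 40 groups of 5 arrays examined, 10 genes in 4 groups, 2 held an array set apart from the other 4, and chance alone sets one apart in about 1 in 20 groups, which comes to 2 of 40. Slc27a1 on CD44KO(HFD) liver replicate 3 was at -0.09, while the nearest array of its group was at 0.69. The same array had the highest Cd36 level of its group, 3.52, and the lowest Slc27a5 level, 7.35. Vldlr on WT(HFD) WAT replicate 1 was at 3.11, with the nearest array of its group at 3.62. That array had 89.5% of its spots well above background, and without it the Vldlr difference between genotypes in WAT was 0.43 in place of 0.56.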

How the results depend on the processing

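Within a tissue, the deviations of same-numbered arrays of both genotypes correlated with r from -0.04 to 0.42 in liver and from -0.21 to 0.09 in WAT. Liver replicate 4 matched its own number best (r = 0.42), and every other replicate matched a different number. Such a comparison lies within a tissue, so it cannot say whether same-numbered liver and WAT arrays share an animal. With the replicate number as a block 0 of the 10 genes passed in liver, where Vldlr was at 0.67 (limma adjusted p = 0.065), and 0 passed in WAT. The block changed no other call.

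Of 977 values of the 10 genes over the alternatives, 922 kept their direction and their side of the threshold, 18 lost the call, 7 gained it and 30 changed sign. In liver the number of genes past the threshold was 1, and it was 0 with normexp background correction, quantile normalization, scaling by the median, no filter on dim probes, the replicate block, all 20 arrays in one fit or the mean of all probes of a gene. Vldlr in liver was at 0.56 (limma adjusted p = 0.14) with normexp, 0.64 (0.053) with quantile normalization, 0.68 (0.052) with median scaling, 0.67 without a filter (0.10), with slide as a block (0.052) and in one fit (0.16), 0.59 (0.070) with array weights, 0.60 (0.067) with weights estimated gene by gene and 0.53 (0.068) as a mean of probes. Lpl in liver passed at -1.09 with slide as a block (0.034) and at -1.08 with array weights (0.039; gene by gene -1.10, 0.037). Leaving out 1 array at a time gave 0 to 1 genes past the threshold in liver and 1 to 6 of the wider set, which was 3 with all arrays, 1 with normexp and 1 in one fit. The count of 6 came without CD44KO(HFD) liver replicate 3. In WAT 2 of the 10 genes passed with array weights, whose estimate did not reach its tolerance there, 1 passed with weights estimated gene by gene, and 2 of the wider set in one fit, against 0 otherwise.

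Some values changed sign. Fabp2 in liver was at -0.10 with normexp, -0.12 with quantile normalization and -0.0008 with array weights (gene by gene -0.001), and ran from -0.068 to 0.073 as arrays were left out, while Slc27a4 in liver ran from -0.067 to 0.033. In WAT array weights put Cd36 at -0.023, Lpl at -0.0086 and Fabp4 at -0.15, against 0.32, 0.40 and 0.17 without weights, gene-by-gene weights put them at -0.0235, -0.019 and -0.18, and the mean of probes put Fabp4 at -0.025. Slc27a4 in WAT was at 0.041 with median scaling, against -0.44. Without WT(HFD) WAT replicate 1 and with slide as a block, an alternative chosen after seeing the data, Fabp4 was at -0.0028 and Slc27a1 at -0.17, and over all fits without an array they reached 0.29 and 0.33. The interaction was -0.0685 with normexp and -0.037 with array weights for Fabp5, 0.0625 and 0.35 with normexp and median scaling for Vldlr, and 0.30 and 0.045 with median scaling for Slc27a1 and Slc27a4. As arrays were left out it ran from -0.10 to 0.26 for Fabp5 and from -0.29 to 0.064 for Vldlr. The causes were not tested.

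Over all probes, 3358 passed in liver, 57.7% of them higher in CD44KO(HFD) mice, against 641 and 33.7% with normexp and 3227 and 50.8% with quantile normalization. In WAT 11 passed, 35 with normexp, 19 with median scaling, 4 with slide as a block and 5292 with array weights. The median over all probes in WAT moved from -0.06 to 0.11 with quantile normalization and to 0.42 with median scaling. Signal over background limited Fabp5 in liver, and saturation limited the brightest Fabp4 probe in WAT.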

Other observations

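Fabp2 is best known from the intestine, so the levels of 5 intestinal markers were read beside it. Their summed signal was -3.85 to -2.20 on the liver arrays, with at most 2 of the 5 well above background on any of them, while Fabp2 lay between 6.91 and 7.46 on these arrays. In WAT the summed signal was -3.75 to 0.51 in WT(HFD) mice and -2.61 to -2.05 in CD44KO(HFD) mice, and WT(HFD) replicate 1, the array that stood apart, had the 0.51.

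Kupffer cell markers had a summed signal of 4.81 to 6.36 in WT(HFD) liver and 6.14 to 7.55 in CD44KO(HFD) liver, and all 5 had a higher mean there, with 2 past the threshold. Mesothelial markers had 1.09 to 3.33 in WT(HFD) WAT and -0.05 to 1.67 in CD44KO(HFD) WAT, with all 5 lower on average and 0 past the threshold in limma, although 4 had an unadjusted p under 0.05. The 4 brown fat markers had 0.10 to 1.73 and 1.07 to 1.53 in WAT. Skeletal muscle markers had 0.55 to 1.85 and 0.80 to 0.96 in WAT, epididymal markers -4.76 to 0.44 and -4.84 to -2.17, and pancreatic markers -2.99 to 0.01 and -3.37 to -1.79, with the highest value of each of these 3 lists on WT(HFD) replicate 1. In liver the endothelial markers had 1.70 to 2.70 in WT(HFD) mice and 2.40 to 2.91 in CD44KO(HFD) mice.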
